A study of Rattus norvegicus with 16 samples.

Results

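Rfk encodes riboflavin kinase and Rab14 encodes a small GTPase of the Rab family. Both genes were chosen by their large increases in rat liver after 2 substituted dithiolethiones, oltipraz (OLT) and a tert-butyl compound (TBD). The differences of OLT and TBD livers from vehicle and D3T livers that chose them are therefore described below without a test. Their intervals come from the fit alone and take no account of the choice, which favours large differences. Every probe set that the platform annotation gives to Rfk or Rab14 alone was used. Each gene had 1 such probe set, rc_AA859848_at for Rfk and M83680_at for Rab14, and both passed the filter on dim signals. These are 2 of the 4736 genes that the array measures with a probe set of a single symbol, and 2 of the 3104 genes that entered the tests.

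The study gave 16 male F344 rats, obtained at 6 weeks of age, 3 oral doses of a dithiolethione or of vehicle, one every other day over 5 days, and took the liver 24 h after the last dose. The 3 compounds were all given at 0.3 mmol/kg: D3T (3H-1,2-dithiole-3-thione, the ring without substituents), OLT (the ring with pyrazinyl and methyl substituents) and TBD (the ring carrying a tert-butyl substituent). Vehicle rats received saturated sucrose, although their sample titles call them untreated. Each group had 4 rats, randomly assigned, with 1 microarray of total liver RNA per rat. The compounds, which differ in the groups on the ring, are compared at the same dose and time. The arrays do not measure how much of each compound reached the liver.

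Dithiolethiones are chemoprotective compounds known for raising detoxication enzymes in rodent liver, largely through the transcription factor NRF2. Riboflavin kinase phosphorylates riboflavin (vitamin B2) to FMN, from which FAD is then made. Flavoproteins, among them NQO1 and cytochrome P450 oxidoreductase, use one or both of these cofactors. RAB14 switches between a GDP-bound and a GTP-bound state and takes part in vesicle traffic between endosomes and the Golgi.

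The promoter of Rfk is shown because it holds the letters of an antioxidant response element, the sequence that NRF2 binds. The 250 bases before the RefSeq start of Rfk (assembly GRCr8, chr1:224226382-224226631, plus strand) are given with the match to TGACNNNGC in capitals.

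Rfk: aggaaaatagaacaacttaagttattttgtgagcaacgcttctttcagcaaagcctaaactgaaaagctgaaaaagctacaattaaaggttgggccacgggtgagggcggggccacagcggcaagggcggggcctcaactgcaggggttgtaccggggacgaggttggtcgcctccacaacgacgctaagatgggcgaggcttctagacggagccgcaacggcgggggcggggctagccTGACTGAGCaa

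The first base of the match lay 11 bases before the start. With both strands searched, 4038 of 33469 windows of the same length (250 bases before and 50 after each gene's start) held TGACNNNGC, or 12.1%, so the motif by itself is common. The windows of 12 of 41 genes on a list of NRF2 targets held it. The GC box GGGCGG stood 3 times in the Rfk window, and 33.1% of all windows held it at least once. The RefSeq window of Rab14 (chromosome 3) started inside the annotated gene, and it held neither TGACNNNGC nor the looser TGANNNNGC, which contains every TGACNNNGC match and stood in 40.5% of all windows. These matches are letters in a window and say nothing on binding, and the missing match of Rab14 concerns this internal start alone.

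Array values are the authors' log2 GCRMA values, and every difference below is on that log2 scale. Rfk measured 6.89, 6.46, 6.55 and 6.14 in D3T livers (replicates 1 to 4). It measured 7.97, 7.44, 8.28 and 8.17 in OLT livers, and 7.55, 7.69, 7.93 and 7.42 in TBD livers. In vehicle livers it measured 5.23, 5.85, 5.71 and 4.28. Every treated liver lay above every vehicle liver, and every OLT and TBD liver lay above every D3T liver, while OLT and TBD livers overlapped. The lowest vehicle value, 4.28, stood apart from the other 3 vehicle livers.

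The group means of Rfk were 6.51 ± 0.31 with D3T, 7.96 ± 0.37 with OLT, 7.65 ± 0.22 with TBD and 5.27 ± 0.71 with vehicle (SD, n = 4 each). The spread among vehicle livers was the widest of the 4 groups. OLT minus vehicle was 2.70 ± 0.29 (SE), or 6.48-fold, with a 95% interval of 2.08 to 3.32. TBD minus vehicle was 2.38 ± 0.29, or 5.20-fold, with an interval of 1.76 to 3.00. The gap between the lowest treated and the highest vehicle liver was 1.59 with OLT and 1.57 with TBD. Of all tested probe sets, 4.88% lay higher without overlap in OLT than in vehicle livers and 3.98% in TBD than in vehicle livers, and since these contrasts chose Rfk, nothing is read from its place among them.

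Rab14 measured 7.21, 7.14, 7.20 and 6.43 in D3T livers. It measured 8.96, 7.06, 7.28 and 7.53 in OLT livers, and 7.38, 8.68, 8.93 and 8.25 in TBD livers. In vehicle livers it measured 5.86, 5.56, 5.79 and 6.36. Here too every treated liver lay above every vehicle liver, but the treated groups were less cleanly ordered: OLT livers overlapped both D3T and TBD livers, and the highest OLT value came from a single liver, replicate 1.

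The group means of Rab14 were 6.996 ± 0.38 with D3T, 7.71 ± 0.86 with OLT, 8.31 ± 0.68 with TBD and 5.89 ± 0.34 with vehicle (SD, n = 4 each). OLT minus vehicle was 1.81 ± 0.39 (SE), or 3.52-fold, with a 95% interval of 0.98 to 2.65 and a gap of 0.70 between the groups. TBD minus vehicle was 2.42 ± 0.39, or 5.34-fold, with an interval of 1.58 to 3.25 and a gap of 1.02. Both genes were thus lowest in vehicle livers and next lowest in D3T livers, with OLT ahead of TBD in the mean for Rfk and TBD ahead of OLT for Rab14. Both members varied more between livers of a group than most genes: the residual SD was 0.44 for Rfk and 0.60 for Rab14, larger than those of 87.2% and 94.5% of the tested probe sets, whose median was 0.20.

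**Figure D1:**
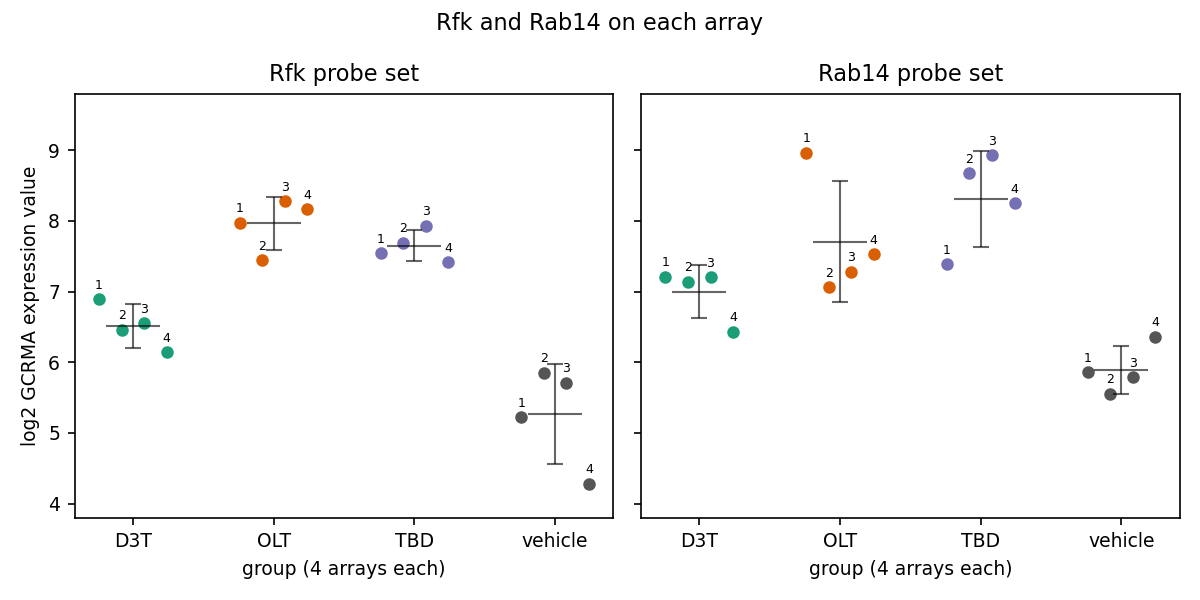
Log2 GCRMA value of Rfk (left) and Rab14 (right) on each of the 16 arrays, by group, with the replicate number above each dot; bars are group means and whiskers are SD (n = 4). The vehicle livers lie below all treated livers for both genes, and the OLT and TBD livers lie above the D3T livers for Rfk without overlap, while for Rab14 the OLT livers span from 7.06 to 8.96.

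OLT replicate 1 and TBD replicate 4 stood apart from the other arrays on the second principal component, which held 13% of the variance against 39.9% for the first. OLT replicate 1 held the highest Rab14 value of its group, and without it OLT minus vehicle for Rab14 was 1.40. TBD replicate 4 lay between the other TBD livers for Rab14. Replicates of a group correlated at 0.983 to 0.997 over all probe sets, no columns were identical, and array medians lay between 3.27 and 3.58. All 15 measured hepatocyte markers exceeded the array median on every array.

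The unsubstituted D3T was the compound whose contrast with vehicle the choice of genes did not name. Both its D3T and its vehicle arrays stood in the contrasts that did, so its p-values are not independent of the choice. Rfk rose in D3T livers by 1.24 ± 0.29 (SE), or 2.37-fold, with a 95% interval of 0.62 to 1.86 (limma, adjusted p = 0.00836 over 5323 probe sets). The two-sided exact permutation test of the 4 against 4 livers gave p = 0.0286, the smallest it can give. Rab14 was higher by 1.10 ± 0.39 in D3T than in vehicle livers, or 2.15-fold, with an interval of 0.26 to 1.94, and did not pass the threshold of 0.05 (limma, adjusted p = 0.0656), although the exact permutation test also gave p = 0.0286. In all, 6.18% of the tested probe sets rose with D3T at that threshold and 9.07% lay higher without overlap. The groups were separated by 0.29 for Rfk and by 0.07 for Rab14.

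The call on Rab14 with D3T moved with the estimate of its spread. With only the 8 D3T and vehicle arrays in the limma fit its adjusted p was 0.00806, and without OLT replicate 1 it was 0.0187. Without TBD replicate 1 it was 0.0422. The highest adjusted p with 1 array left out was 0.173, without vehicle replicate 2. Rfk passed with any 1 array left out, with adjusted p between 0.00619 and 0.0308, and its difference was 0.91 without vehicle replicate 4, the liver with the lowest value.

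The compounds were compared in 3 pairs at the same dose and time, and TBD against OLT was the pair tested for the 2 genes, with p-values adjusted over all probe sets. The choice of genes did not name this pair, but it used the arrays of both groups. For Rfk, TBD minus OLT was -0.32 ± 0.29 (SE), with an interval of -0.94 to 0.30 (limma, adjusted p = 0.999914). In 3 of 16 pairs of livers the TBD liver was the higher one, and the exact permutation test gave p = 0.2. Rab14 was higher by 0.60 ± 0.39 in TBD than in OLT livers, with an interval of -0.24 to 1.44 (limma, adjusted p = 0.999914). The TBD liver was higher in 11 of 16 pairs, with p = 0.343 in the exact permutation test. Neither difference passed, and the intervals leave room for an Rfk level lower with TBD by up to 0.94 and a Rab14 level higher with TBD by up to 1.44. Without OLT replicate 1 the Rab14 difference was 1.02. Over all genes, 0.0564% of the probe sets differed between TBD and OLT livers, or 3 of 5323 by limma, all lower with TBD, and 145 had an unadjusted p under 0.05.

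Each substituted compound is set against D3T as a description, since the genes were chosen for this difference. OLT minus D3T was 1.45 ± 0.29 (SE) for Rfk, or 2.74-fold, with every OLT liver above every D3T liver and a gap of 0.55. TBD minus D3T was 1.14 ± 0.29 for Rfk, or 2.20-fold, with a gap of 0.52. The pattern of Rab14 was less even. OLT minus D3T was 0.71 ± 0.39 with an interval of -0.13 to 1.55, and the OLT liver was higher in 13 of 16 pairs. Without OLT replicate 1 this value was 0.29, so 1 liver carried much of it. TBD minus D3T was 1.31 ± 0.39 for Rab14, or 2.48-fold, and every TBD liver lay above every D3T liver by at least 0.17. Of all probe sets, 4.04% lay higher without overlap in OLT than in D3T livers and 2.25% in TBD than in D3T livers. By limma, 1.07% of them differed between OLT and D3T livers and 0.658% between TBD and D3T livers.

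Among the 3104 genes ordered by their difference from vehicle, Rfk stood at rank 36 with D3T, 6 with OLT and 11 with TBD. Rab14 stood at rank 51 with D3T, 11 with OLT and 10 with TBD. The places with OLT and TBD follow from the choice of genes for large rises, so nothing is read from them. The 3 comparisons share the 4 vehicle arrays, so the places with D3T, OLT and TBD are not independent of each other.

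**Figure D2:**
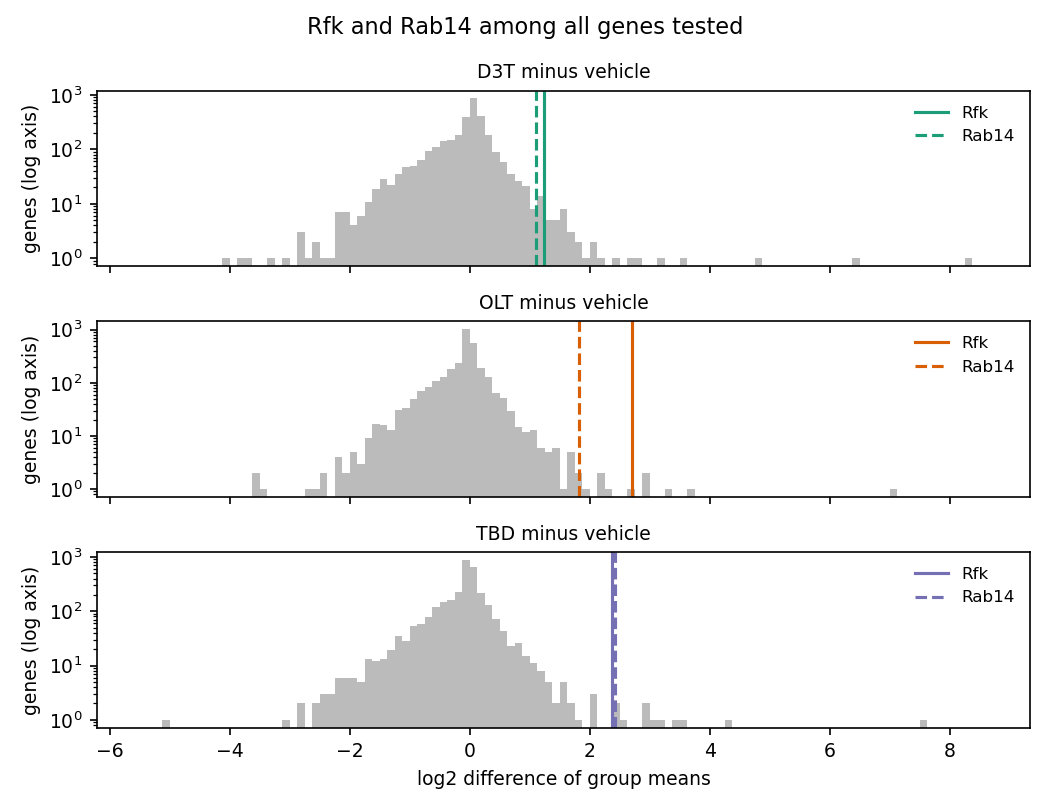
Histograms of the difference from vehicle (log2, horizontal axis) of the 3104 tested genes for D3T, OLT and TBD, with the number of genes on a log axis; the solid line marks Rfk and the dashed line Rab14. Both lines lie in the upper tail in each panel, with Rfk at 1.24, 2.70 and 2.38 and Rab14 at 1.10, 1.81 and 2.42. For OLT and TBD this place follows from the choice of genes.

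No other tested gene of flavin cofactor synthesis and transport passed the test beside Rfk. Of 12 genes on that list 7 had a probe set, and the 5 tested besides Rfk were phosphatases and nucleotide pyrophosphatases that can act on FMN or FAD (Acp2, Acp5, Alpl, Enpp1 and Enpp3). None passed in either direction with D3T, OLT or TBD, where 18.4% of all probe sets passed with D3T, 11.3% with OLT and 13% with TBD. Their median difference was 0.01 with D3T, 0.06 with OLT and -0.04 with TBD, against medians over all probe sets of 0.04, -0.03 and -0.02 for the same 3 compounds. The largest single difference was that of Enpp3 with D3T, at -0.70 ± 0.29 (limma, adjusted p = 0.117). Flad1, the FAD synthase that uses the product of riboflavin kinase, was not analysed here.

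The flavoproteins, which use the cofactors, mostly fell where they changed. Of 37 tested, 2 rose and 11 fell with D3T, 0 rose and 9 fell with OLT, and 1 rose and 9 fell with TBD. Over all probe sets the shares called lower were 12.2% with D3T, 7.89% with OLT and 9.47% with TBD. The shares called higher were 6.18%, 3.38% and 3.55%, so the counts that rose are near that background. The list's medians were -0.23, -0.26 and -0.33, in the order D3T, OLT and TBD. Called with all 3 compounds were 6 of the 37, and 21 were called with none. The matching shares of all probe sets are not given here, and the 3 comparisons share the vehicle arrays, so nothing is read from these 2 counts. The count that fell with D3T was 7 without vehicle replicate 2, vehicle replicate 4 or D3T replicate 4, and the count that fell with OLT was 5 without vehicle replicate 4.

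Por, the reductase that passes electrons to cytochromes P450, carries both FMN and FAD. It measured 8.01 to 8.64 in D3T livers, 7.60 to 9.27 in OLT livers, 7.81 to 8.25 in TBD livers and 9.51 to 9.82 in vehicle livers, with no overlap between treated and vehicle livers; over all probe sets, 15.8% lay lower without overlap with D3T, 9.79% with OLT and 10.3% with TBD. It fell, with differences of -1.25 with D3T, -1.52 with OLT and -1.65 with TBD (SE 0.28; limma, adjusted p = 0.00675, 0.00322 and 0.00156). Of its other probe sets, E01524cds_s_at fell with all 3 compounds, with differences of -1.96, -2.36 and -2.66. On rc_AI137856_s_at Por fell with OLT (-2.16) and TBD (-2.15), and its difference of -1.22 with D3T did not pass (limma, adjusted p = 0.179). Fmo1, a flavin-containing monooxygenase, fell as well, with differences of -1.80, -1.80 and -1.66 for the 3 compounds in that order (limma, adjusted p = 0.00481, 0.00733 and 0.0108). The mitochondrial acyl-CoA dehydrogenases Acadl and Acadm, which use FAD in fatty acid oxidation, fell too, Acadl with differences of -0.87, -0.55 and -0.80 and Acadm with -0.44, -0.44 and -0.51. Under the alternative settings the differences of Acadl shrank to as little as -0.37, -0.30 and -0.37. Sqle, the squalene epoxidase of cholesterol synthesis, fell to 2.86 to 3.00 in D3T livers, 3.02 to 3.69 in OLT livers and 2.90 to 5.90 in TBD livers, against 5.97 to 8.10 in vehicle livers (limma, adjusted p = 0.000478, 0.00165 and 0.00276). Since most treated livers sat at or below the array median there, no fold is given for Sqle. Ero1b, an oxidase of disulfide formation in the endoplasmic reticulum, was the other gene called with all 3 compounds, with differences of -0.99, -1.05 and -0.95. Its calls were lost under 4, 6 and 12 of the 28 alternative settings with D3T, OLT and TBD, and with OLT the call of Acadl was lost under 8 and that of Acadm under 6.

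The 2 flavoproteins that rose with D3T were Nqo1 and Gsr, both NRF2 targets. Nqo1, a quinone reductase that carries FAD, measured 7.29 to 8.29 in D3T livers, 5.19 to 7.53 in OLT livers, 4.53 to 8.79 in TBD livers and 4.02 to 4.77 in vehicle livers. The D3T and OLT livers did not overlap the vehicle livers, while TBD replicate 1 lay among them. Of all probe sets, 9.07% lay higher without overlap with D3T and 4.88% with OLT. Nqo1 rose by 3.62 ± 0.69 (SE) with D3T (limma, adjusted p = 0.00226) and by 2.58 ± 0.69 with TBD (adjusted p = 0.0228), while its difference of 2.16 ± 0.69 with OLT did not pass (adjusted p = 0.0581). The TBD call was lost without vehicle replicate 2, vehicle replicate 4 or TBD replicate 2, with adjusted p up to 0.0678, and with only the 8 arrays compared, at 0.0916. The OLT difference passed without OLT replicate 2, TBD replicate 1 or TBD replicate 4, and also with an intensity trend, with array weights and with only the 8 arrays (limma, adjusted p = 0.0483, 0.01 and 0.0178). Gsr, glutathione reductase, rose by 1.66 ± 0.35 with D3T (limma, adjusted p = 0.00476), and its differences were 0.64 with OLT and 0.75 with TBD (adjusted p = 0.314 and 0.207). Of the other Gsr probe sets, U73174_at also rose with D3T, by 1.49 (adjusted p = 0.0106), and rc_AA893189_at differed by 0.93 and did not pass (adjusted p = 0.0861). Txnrd1, thioredoxin reductase, differed by 0.24, 0.30 and 0.34 and Gulo, the last enzyme of vitamin C synthesis in rats, by -0.49, -0.34 and -0.59, none of which passed. Nqo1 and Gsr thus had their largest differences with D3T. Neither gene's own difference between compounds passed the test (limma, adjusted p from 0.233 to 0.621 against D3T). Nqo2 was not analysed here.

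Among the other Rab GTPases, the early endosome members Rab5a and Rab5b were lower with all 3 compounds, Rab5a on 1 of its 2 probe sets. Of 19 other Rab GTPases tested, 0 rose and 8 fell with D3T, 0 rose and 2 fell with OLT, and 0 rose and 4 fell with TBD, where 12.2%, 7.89% and 9.47% of all probe sets fell with D3T, OLT and TBD. The count with OLT is near that background. The shares that rose were 6.18%, 3.38% and 3.55%, so 0 of 19 is near the background too. Their medians were -0.10, -0.13 and -0.16 with the 3 compounds in that order. These counts are small and unsteady: with 1 array left out, 4 to 9 fell with D3T (4 without vehicle replicate 2, and 5 without D3T replicate 1 or D3T replicate 4), and 1 rose without vehicle replicate 1. With OLT 4 fell without vehicle replicate 1, and with TBD 2 fell without vehicle replicate 2 or without TBD replicate 1, 2 or 3.

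The 2 called with all 3 compounds were Rab5a and Rab5b, GTPases of the early endosome. The share of all probe sets called with all 3 is not given here, and the comparisons share the vehicle arrays. Rab5b measured 4.88 to 5.26 in D3T livers, 5.26 to 5.58 in OLT livers, 5.05 to 5.69 in TBD livers and 6.04 to 6.73 in vehicle livers. Each treated group thus lay wholly below vehicle, as did 15.8% of all probe sets with D3T, 9.79% with OLT and 10.3% with TBD. Rab5b fell, with differences of -1.22, -0.96 and -0.90 with D3T, OLT and TBD (limma, SE 0.16, adjusted p = 0.000155, 0.00174 and 0.00174). Rab5a fell, with differences of -1.39, -1.54 and -1.68, on the probe set rc_AA800305_at (limma, adjusted p = 0.00076, 0.000801 and 0.000263). The other Rab5a probe set, AF072935_at, differed by 0.01, -0.06 and -0.09 and did not pass, so the 2 disagree. Rab1a, of transport between the endoplasmic reticulum and the Golgi, fell, with differences of -0.77 with D3T (limma, adjusted p = 0.00321) and -0.54 with TBD (adjusted p = 0.0342, lost under 9 of the alternative settings). Rab10 (-1.19) and Rab33b (-1.20) fell with D3T, Rab33b on 1 of 2 probe sets, the other differing by 0.10, and the Rab10 call was lost under 3 alternative settings. Rab11a, of the recycling endosome, fell by 0.71 with D3T on 1 of 3 probe sets (M75153_g_at; limma, adjusted p = 0.0406) and lost that call under 8 alternative settings. Its other probe sets differed by -0.65 and -0.15 and did not pass (adjusted p = 0.0663 and 0.511). Rab2a, of the same early secretory route as Rab1a, differed by 0.03, 0.10 and -0.01 and did not pass. Rab4a and Rab4b lay below the filter on dim signals.

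Of 7 tested proteins that act on Rab GTPases, 2 fell with D3T, 1 with OLT and 3 with TBD, and 0 rose with any of the 3. Of all probe sets, 12.2%, 7.89% and 9.47% fell with D3T, OLT and TBD, so 1 of 7 with OLT is near the background. The shares that rose were 6.18%, 3.38% and 3.55%, so 0 of 7 is near it too. Rabggtb, the beta subunit of the transferase that attaches geranylgeranyl groups to Rab proteins, measured 7.15 to 7.39 in D3T livers, 6.69 to 7.84 in OLT livers, 6.53 to 7.61 in TBD livers and 7.97 to 8.70 in vehicle livers. Treated and vehicle livers did not overlap, and of all probe sets 15.8%, 9.79% and 10.3% lay lower without overlap with D3T, OLT and TBD. Rabggtb fell, with differences of -1.07, -1.32 and -1.21 with D3T, OLT and TBD (limma, SE 0.26, adjusted p = 0.0118, 0.00522 and 0.00724). Rab3ip, an exchange factor for RAB8, fell, with differences of -0.76 with D3T and -0.98 with TBD (limma, adjusted p = 0.0283 and 0.00985). Gdi2, which takes GDP-bound Rab proteins off membranes, fell by 1.15 with TBD (adjusted p = 0.0277). The D3T call of Rab3ip was lost when vehicle replicate 2, 3 or 4 or D3T replicate 2 or 4 was left out, and the TBD call of Gdi2 when vehicle replicate 2, 3 or 4 was. Renewed quantile normalization also ended both calls (limma, adjusted p = 0.106 for Rab3ip and 0.0989 for Gdi2), and centring and the 8 arrays alone ended that of Gdi2 (adjusted p = 0.0539 and 0.13). Of 23 SNAREs and partners, which fuse vesicles with membranes, 1 fell with D3T (Vamp3) and 1 with OLT (Stx5), calls lost under 14 and 13 alternative settings, and 0 passed with TBD. These counts lie below the 12.2%, 7.89% and 9.47% of all probe sets that fell.

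**Figure D3:**
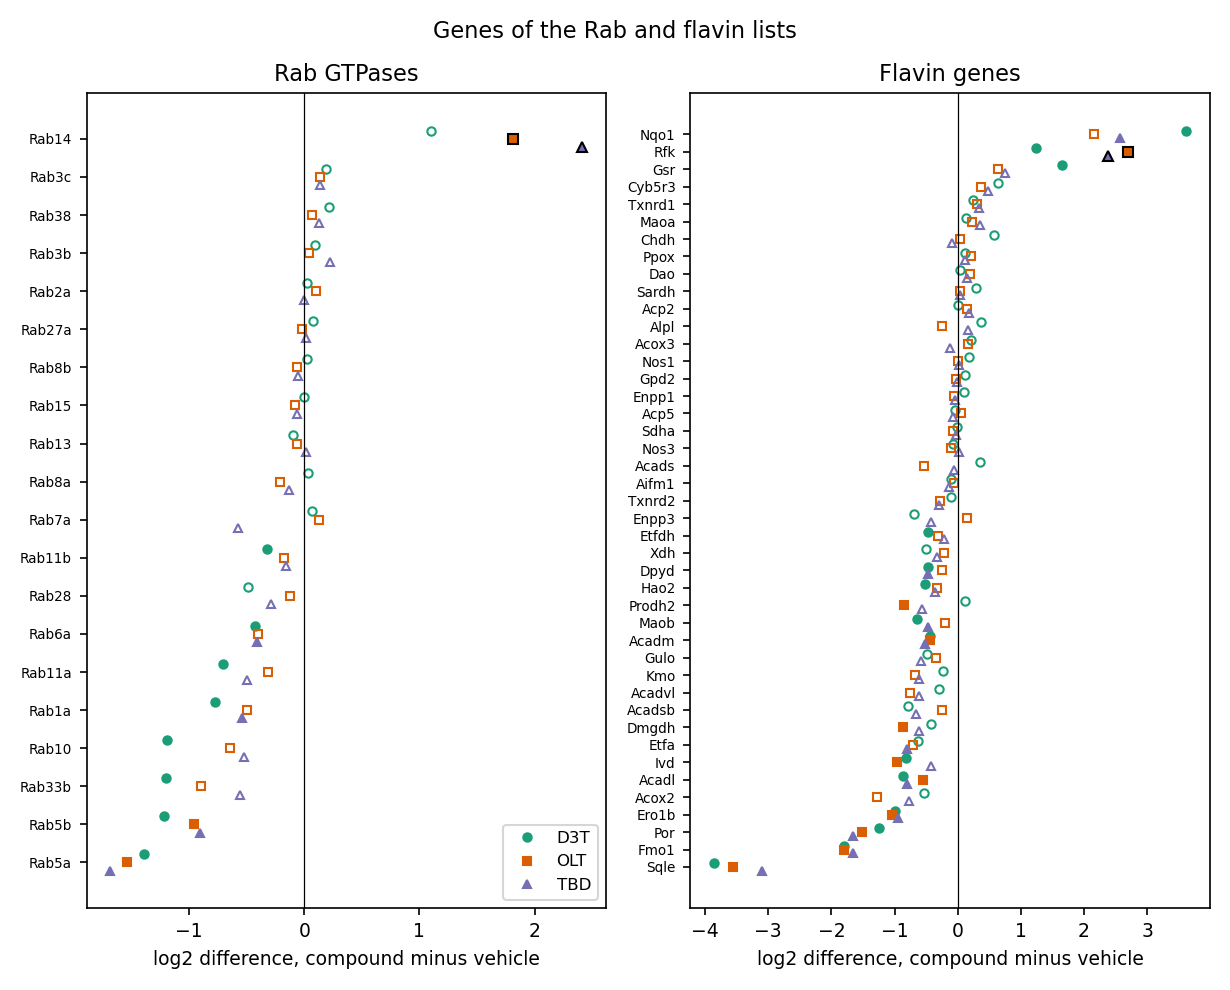
Difference from vehicle (log2, horizontal axis) of 20 Rab GTPases (left) and of 37 flavoproteins and 6 flavin cofactor genes (right); circles stand for D3T, squares for OLT and triangles for TBD, filled where the adjusted p is under 0.05. The black-edged symbols of Rfk and Rab14 with OLT and TBD carry no test, and they lie to the right of the other genes of their panels except Nqo1, while Por, Fmo1, Sqle, Rab5a and Rab5b lie to the left with all 3 compounds.

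Of 28 NRF2 targets tested, 15 rose and 0 fell with D3T, 12 rose and 0 fell with OLT, and 12 rose and 1 fell with TBD, while 13, 16 and 15 did not pass with the 3 compounds in that order, and the medians were 0.82, 0.64 and 0.67. In all, 6.18% of the tested probe sets rose with D3T, 3.38% with OLT and 3.55% with TBD. Ephx1, microsomal epoxide hydrolase, is on this list and lay above vehicle by 1.75, 1.71 and 1.68 with D3T, OLT and TBD. Gstp1, a glutathione S-transferase, rose by 6.38, 2.20 and 4.27, with the OLT call lost under 9 alternative settings. Its OLT minus D3T was -4.18 (limma, adjusted p = 0.00232).

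The genes whose pattern was most like each member were found by the root mean square difference over the 16 arrays, after each gene was set to 0 at its own vehicle mean. They were chosen for likeness and are described without a test. For Rfk the 6 nearest of all tested genes were Ugt2b1 at 0.62, Nedd4 at 0.74, Ephx1 at 0.77, Rab14 at 0.78, Cyp2b2 at 0.83 and Aldh1a1 at 0.83, where the median gene stood at 1.96. Ugt2b1, a glucuronosyltransferase, averaged 0.95 above vehicle with D3T, 2.94 with OLT and 2.90 with TBD. Cyp2b2, a cytochrome P450 known to be induced by phenobarbital, averaged 0.35, 2.37 and 2.12 above vehicle. Both belong to families with closely similar members, whose RNA a probe set may also read. These 2 genes share with Rfk the step between D3T and the substituted compounds, while Nedd4, Ephx1 and Aldh1a1 were nearly level across the 3 compounds.

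For Rab14 the 6 nearest were Nedd4 at 0.50, Ephx1 at 0.66, Aldh1a1 at 0.70, Cavin3 at 0.75, Tkt at 0.77 and Rfk at 0.78, where the median gene stood at 1.72. Nedd4, a ubiquitin ligase, measured 7.52 to 7.85 in D3T livers, 7.60 to 9.12 in OLT livers, 7.55 to 8.79 in TBD livers and 5.61 to 6.46 in vehicle livers. Its mean lay above vehicle by 1.57, 1.96 and 2.03 with D3T, OLT and TBD. As with Rab14, its highest value in the OLT group came from replicate 1. Cavin3, a coat protein of caveolae, and Tkt, the transketolase of the pentose phosphate pathway, lay above vehicle by 1.70 and 1.62 with D3T, by 1.47 and 1.39 with OLT and by 1.67 and 1.37 with TBD.

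**Figure D4:**
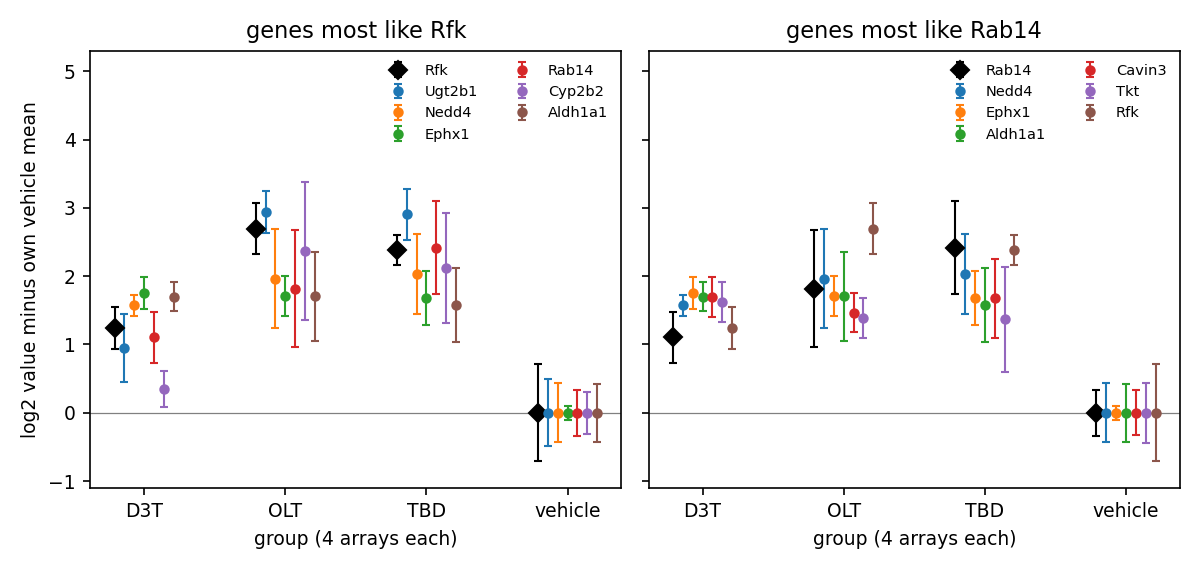
Group means with SD (n = 4) of values set to 0 at the vehicle mean (log2, vertical axis) for Rfk (left) and Rab14 (right), as black diamonds, and for the 6 genes nearest to each, as circles. For Rfk the means with OLT and TBD lie above that with D3T, as for Ugt2b1 and Cyp2b2. The genes nearest to Rab14, apart from Rfk, lie closer to level across the compounds than Rab14.

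The windows of Ugt2b1 and Cyp2b2, whose step was most like that of Rfk, and of Nqo1 were searched for the same letters. None of the 3 windows held TGACNNNGC. Bases outside the windows were not searched for any gene, so a missing match says nothing on sequence farther upstream. The looser TGANNNNGC stood in the window of Nqo1 in the direction of the gene and in that of Cyp2b2 in both directions. The window of Ugt2b1 held neither. Of other genes near the members in pattern, the windows of Aldh1a1 and Tkt held the looser letters in the reverse direction. Those of Nedd4 and Ephx1 held neither. The matches of Nqo1 and Cyp2b2 are shown in capitals with 10 bases on either side, to set beside those of Rfk.

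Rfk: ggggctagccTGACTGAGCaacggaagcc
Rfk, looser match: actgaaaagcTGAAAAAGCtacaattaaa
Nqo1: atataaagccTGAAAGTGCtcagtacagc
Cyp2b2: cgtgaacatcTGAAGTTGCataactgagt
Cyp2b2, reverse match: gagtgtagggGCAGATTCAgcataaaaga

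The matches began 11 and 182 bases before the start for Rfk, 50 for Nqo1, and 92 and 67 for Cyp2b2. The lines are RefSeq sequence of GRCr8, at chr1:224226611-224226639 and chr1:224226440-224226468 (plus strand) for Rfk, chr19:52220299-52220327 (minus strand) for Nqo1, and chr1:90722179-90722207 and chr1:90722204-90722232 (plus strand) for Cyp2b2.

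These are whole livers, so a lower level from fewer cells of a type and from less RNA per cell cannot be told apart. The 8 measured Kupffer cell and macrophage markers exceeded the array median on every array, and 4 of 8 fell with each compound, where 12.2% of all probe sets fell with D3T, 7.89% with OLT and 9.47% with TBD. Their summed linear signal was 1570 to 1930 in D3T livers, 1540 to 2290 in OLT livers, 1680 to 2330 in TBD livers and 2660 to 3780 in vehicle livers, without overlap between treated and vehicle livers. The summed signal of 15 hepatocyte markers was 239000 to 257000 in D3T livers, 201000 to 254000 in OLT livers, 224000 to 259000 in TBD livers and 222000 to 234000 in vehicle livers, so OLT and TBD livers overlapped vehicle and D3T livers lay above it. Of these 15 markers, 2 rose and 2 fell with D3T, 0 rose and 1 fell with OLT, and 0 passed with TBD. In all, 6.18% of probe sets rose with D3T. The list's medians were -0.04, -0.04 and 0.02 with D3T, OLT and TBD, so the higher D3T sum does not stand for the markers as a set. The stellate cell sum of 11 markers overlapped vehicle in every treated group, while 3 of the 11 fell with D3T, 2 with OLT and 3 with TBD. Among them Col1a1, a collagen chain, fell, with differences of -4.01, -2.16 and -2.84, and its OLT call was lost under 17 alternative settings. Under such settings its differences shrank to as little as -2.21, -1.30 and -1.64. Of 5 endothelial markers, 2 fell with D3T, 0 with OLT and 1 with TBD, and Lyve1, a hyaluronan receptor of liver sinusoids, fell by 1.92 with D3T. The part of these markers in the levels of Rfk and Rab14 was not tested. The genome annotation also names 3 further loci after Rfk, 2 as pseudogenes and 1 as protein-coding, none with a probe set of its own here, and their part in the Rfk signal was not tested.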

How the data were processed

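Total liver RNA from 16 rats was biotin-labelled and hybridised to single-colour arrays, 1 array per rat. The deposited log2 values were made by the authors with GCRMA, per the submitters' processing notes, which give no version. GCRMA corrects background from probe sequence and normalizes arrays together, so values near background are compressed and no background flags remain. Of 8740 probe sets, 7006 have 1 gene symbol in the platform annotation, 308 several and 1426 none. The filter kept the 5323 probe sets that lay above the 40th percentile of the array in 4 or more of the 16 livers, and left out 3417. Where a gene had several tested probe sets, the brightest on average stood for it.

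limma 3.58.1 (R 4.3.3) was fitted with 1 mean per group over all 16 arrays, and p-values were adjusted over 5323 probe sets by the Benjamini-Hochberg method with a threshold of 0.05. Exact permutation tests were two-sided. The number of arrays limits the precision. Array values carry no read depth.

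The members and the gene lists were chosen with earlier results of these data known. Named genes were Nqo1, Nqo2, Txnrd1, Gsr, Por, Sqle, Gulo, Flad1, Rab2a, Rab4a, Rab4b and Rab11a in any case, up to 4 called genes of each list per compound by size of change, the 6 genes nearest to each member, and called genes among the 5 nearest tested genes on either side of each. Acadl, Acadm and Enpp3 were named after their values were seen. Alternatives are described in the closing section.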

Additional observations from a re-analysis of the deposited data

Results flagged for a closer look

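Of 212 groups of 4 livers checked over 53 named genes, 15 held a value far from the other 3, and chance flags about 1 in 20. Rab14 was 6.43 in D3T replicate 4, where the other D3T livers lay between 7.14 and 7.21. In OLT replicate 1, Nedd4 was 9.12 (others 7.60 to 7.86), Rabggtb 7.84 (6.69 to 6.81), Sqle 3.69 (3.02 to 3.12) and Ttr 13.96 (14.30 to 14.34). In other OLT livers, Aldh1a1 was 10.63 in replicate 2 (others 11.83 to 12.07) and Cd74 7.90 in replicate 3 (8.63 to 8.64). In TBD livers, Sqle was 5.90 in replicate 4 (others 2.90 to 3.00) and Enpp3 7.48 in the same liver (8.23 to 8.37), and Rab33b was 5.37 in replicate 3 (4.66 to 4.76). In D3T livers, Nqo1 was 7.29 in replicate 3 (others 8.13 to 8.29) and C1qb 8.68 in replicate 1 (9.01 to 9.05), while in replicate 2 Enpp3 was 8.17 (7.65 to 7.71) and Acadm 11.02 (10.86 to 10.89). In vehicle livers, Fgb was 13.55 in replicate 4 (others 13.33 to 13.36).

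A difference between compounds passed limma's test for Gstp1, with OLT minus D3T at -4.18 (adjusted p = 0.00232).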

How the results depend on the processing

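The differences of Rfk and Rab14 from vehicle and between compounds kept their direction under all 28 alternatives, and Rfk kept its call with D3T. Rab14 with D3T passed with renewed quantile normalization (1.33, adjusted p = 0.0171), array weights (1.27, 0.000117), only the 8 arrays compared (1.10, 0.00806), and without OLT replicate 1 and TBD replicate 4 together (1.10, 0.0206, added after the data were seen). With 1 array left out it was 0.99 to 1.29. The weight estimate stopped before converging, so its values are uncertain. Counts of called probe sets were 2263 (D3T), 1066 (OLT) and 1333 (TBD) against vehicle with array weights, 361 (OLT) and 426 (TBD) with centred array medians, and 361 for TBD with only the 8 arrays. OLT against D3T had 92 with quantile normalization, 171 with array weights, 88 without both arrays and 30 to 84 with 1 array left out. TBD against D3T had 13 with centring, 152 with weights, 8 with the 8 arrays and 19 to 41 with 1 left out, and TBD against OLT 3 to 6. The share of higher calls against vehicle was 33.5% (D3T), 30% (OLT) and 27.3% (TBD) as reported, 52.9%, 46.5% and 44.9% after quantile normalization, 43.8%, 41.8% and 33.6% after centring, and 54.2%, 34.7% and 37.7% with weights. Rab GTPases called were 4 for OLT with weights or with probe sets averaged, and 2 for TBD with quantile normalization, centring, an intensity trend or the 8 arrays, and, with 1 array left out, 4 to 9 (D3T), 2 to 4 (OLT) and 2 to 3 (TBD). Rab regulators called were 1 (quantile) and 4 (weights) for D3T, 1 to 2 with 1 left out, and for OLT 3 with weights, 2 with the stricter filter, quantile, the 8 arrays, both arrays out or averaged probe sets, and 1 to 2 with 1 left out. Flavoproteins called were 25 for D3T with weights, 4 for OLT with centring and 6 for TBD with the 8 arrays, and, with 1 left out, 5 to 12 (OLT) and 6 to 12 (TBD). Uncalled differences reversed for Gsr with OLT (-0.15, weights), Rab2a with D3T (-0.034 quantile, -0.030 centring, -0.011 weights, -0.0145 to 0.082 with 1 left out) and TBD (0.0051 quantile, 0.0042 centring, -0.046 to 0.050 with 1 left out), Txnrd1 with D3T (-0.068 to 0.39 with 1 left out) and TBD (-0.080 weights, -0.17 both arrays out, -0.17 to 0.64 with 1 left out), and Enpp3 with OLT (-0.054 to 0.34 with 1 left out) and TBD (0.22, weights). The causes were not tested. Deviations of same-numbered livers correlated between -0.524 and 0.323, and the numbers were not used to pair samples. Whether the numbers mark a batch was not tested. The replicate block gave 888, 526 and 630 calls for D3T, OLT and TBD against vehicle. Which uncalled named genes were followed through the alternatives was settled after values were seen.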

Other observations

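Genes near Rfk and Rab14 in the GRCr8 gene order were read for both members, 10 tested genes each. Pcsk5, the gene next to Rfk, differed from vehicle by 0.12, 0.00 and 0.00 with D3T, OLT and TBD and did not pass. Aldh1a1, 24 genes from Rfk and among the genes nearest to it in pattern, lay above vehicle by 1.70, 1.71 and 1.58 with D3T, OLT and TBD, given here as a description. Gda, guanine deaminase, 37 genes from Rfk, rose by 1.11 with TBD (limma, adjusted p = 0.0476), a call lost under 17 alternative settings. Near Rab14, Ass1, the urea cycle enzyme 97 genes away, rose by 0.47 with D3T (limma, adjusted p = 0.041), lost under 10 settings. Ndufa8, a subunit of respiratory complex I 24 genes away, fell by 0.73 with OLT (adjusted p = 0.0457), lost under 16 settings. Apart from Aldh1a1, no other gene of the 20 passed with any of the 3 compounds. Counting Aldh1a1, 1 of 10 genes near Rfk was called with D3T, 1 with OLT and 2 with TBD. Near Rab14, 1 of 10 was called with D3T, 1 with OLT and 0 with TBD. Over all probe sets, 18.4%, 11.3% and 13% were called with D3T, OLT and TBD. With 10 genes each, these counts are near that background.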
